A study of Drosophila melanogaster with 4 samples.

Results

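The regions described here are the stretches of chromosome arm 3L that the authors listed as enriched for trimethylated lysine 79 of histone H3 (H3K79me3) in Drosophila melanogaster larvae. They were taken by their chromosome name, 3L, and by a feature name that marks enrichment, from the list the authors made for the whole replicate set, called the series-wide list below. This gave 1038 of the 5331 enriched regions of that list. No score or width was used in the choice.

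H3K79 lies on the globular face of the nucleosome and is methylated by the Dot1 enzymes, known in flies as grappa. The mark is found over transcribed genes, usually strongest in the first part of the gene body. Chromosome arm 3L is the left arm of the third chromosome, a metacentric autosome. Its coordinates run from the telomere (the distal end) to the centromere (the proximal end), where the assembled arm runs into pericentric heterochromatin, chromatin that stays condensed and holds few active genes.

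The ChIP libraries, 2 replicates, and the input libraries, also 2, were all made from wild-type Oregon-R animals of the 3rd larval instar, with no treatment. Whole larvae hold many tissues, so a region present in few cells and a weak region in all cells cannot be told apart. The antibody was a rabbit polyclonal (Abcam ab2621, lot 1). No values of the input libraries were analysed here and none stand beside the ChIP values. The labels do not state that the replicates came from separate collections of animals, so the spread between them may be technical. Each ChIP replicate had its own region list, with 1003 regions on 3L in replicate 1 and 910 in replicate 2 (956.5 ± 65.8, SD, n = 2). The lists hold no read counts, so the depth behind a region is unknown, and the score the authors gave each region has no stated unit. Scores of different lists are set side by side as deposited, on no known common scale, and only their ranks were compared across lists. Positions are on FlyBase release 5, counted from 1. A genome and gene annotation of that release were not used here, so regions are given by position and not by gene.

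Enriched regions covered 24.1% of 3L in replicate 1 and 23.6% in replicate 2 (23.9 ± 0.337%, SD, n = 2), which is 5.92 and 5.80 Mb of an arm of 24543557 bp. The series-wide list covered 6.57 Mb, or 26.8%. The covered share of 3L minus the mean of the other 4 large arms (2L, 2R, 3R and X) was -0.660 percentage points in replicate 1 and -0.219 in replicate 2 (-0.439 ± 0.312, SD, n = 2), and 3L ranked 3 of 5 in both. When the proximal 2 Mb was left out of every arm, the difference changed sign, to 0.0254 points in replicate 1 and 0.466 in replicate 2, and 3L ranked 2 of 5. The covered share of 3L therefore lay among those of the other arms, and its side of their mean depended on the proximal end.

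Cover was uneven along the arm. Over the 24 full blocks of 1 Mb the mean of the replicates ran between 1.02 and 41.2%, with a median of 23.8%. The densest block, 8000001 to 9000000, had a cover of 41.5% in replicate 1 and 40.9% in replicate 2 and held 74 series-wide regions. Next came the block that starts at 16000001, with 35.9 and 35.2% in replicates 1 and 2, and the block that starts at 3000001, with 35.2 and 34.5%. In all, 7 blocks were covered to at least 30% and 6 to less than 20%. The block 23000001 to 24000000 was the lowest, at 0.740% in replicate 1 and 1.30% in replicate 2. The block with the next lowest cover, 10000001 to 11000000, lay in the middle of the arm at 15.2 and 16.1%, so the proximal block stood apart from all other full blocks.

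The replicates differed little from block to block beside the differences along the arm. The absolute difference between them had a median of 0.638 percentage points and a maximum of 2.23, against a median step of 8.90 points between neighbouring blocks. Replicate 2 was the lower in 20 of 24 blocks. With the arm cut into 3 parts of equal length, cover in replicates 1 and 2 was 22.0 and 21.6% in the proximal part, 23.3 and 23.2% in the middle part and 27.0 and 26.1% in the distal part. Blocks with more regions were also covered more, with a Spearman correlation of 0.768 across the 24 blocks, which share their libraries. The block that starts at 13000001 held 21 regions, the fewest outside the proximal end, had cover of 18.6% in replicate 1 and 18.5% in replicate 2, and showed the highest median score of any block, 1.26.

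**Figure D1:**
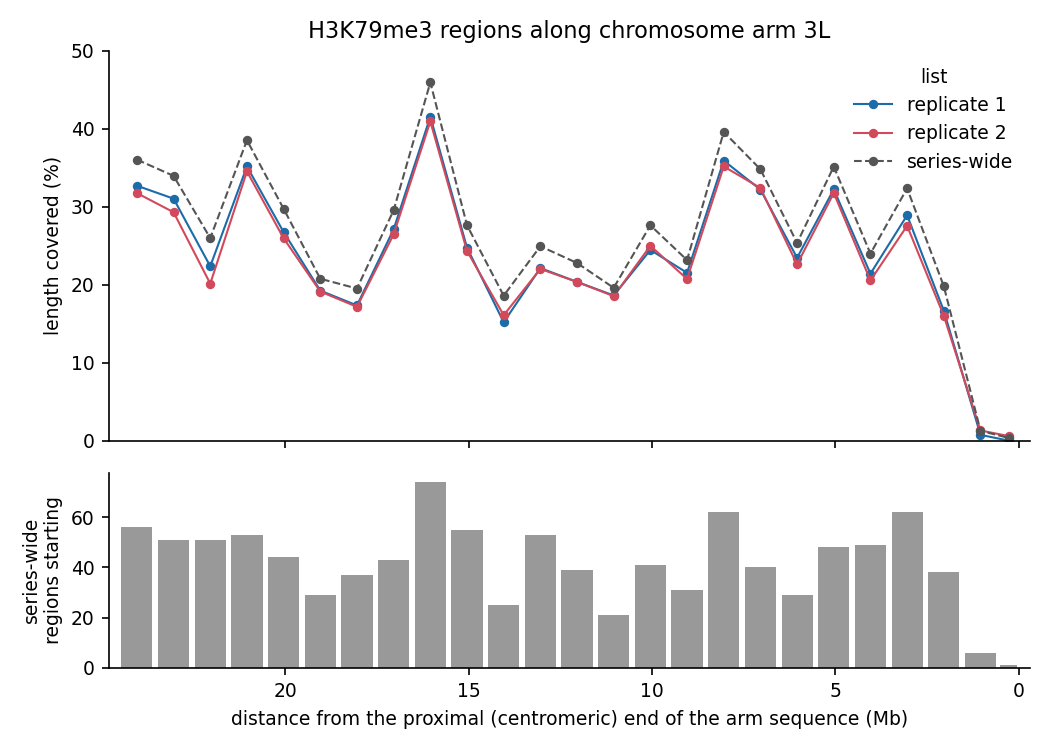
Upper panel, share of each 1 Mb block of 3L covered by enriched regions (percent) in replicate 1, replicate 2 and the series-wide list (dashed line), and lower panel, number of series-wide regions that start in the block, both against distance from the proximal end (Mb, distal end at the left). The replicates lie close together in every block, cover peaks at 41.5 and 40.9% in the block that starts at 8000001, and it drops to 0.740 and 1.30% in the block that starts at 23000001.

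Most regions were a few kilobases wide, and a small number of broad domains held much of the covered length. Series-wide widths on 3L ran between 1001 and 104959 bp, with quartiles of 2011, 3777 and 7487 bp. Median widths were 3730 bp in replicate 1 and 3962.5 bp in replicate 2, where the mean of the other arms' medians was 3635 and 3814 bp. The 54 regions of at least 20 kb made up 5.20% of the 3L regions, beside 4.48 percent of all regions in the series-wide list. They held 25.0% of the covered length of 3L in that list, and regions of this width held 19.5% in replicate 1 and 21.3% in replicate 2. The other arms averaged 20.6% in the series-wide list, 16.6% in replicate 1 and 17.5% in replicate 2. The share on 3L was the highest of the 5 arms in all 3 lists, but 3R came close. On 3R it was 24.3% in the series-wide list, 18.8% in replicate 1 and 19.2% in replicate 2. Regions of at least 20 kb were also 5.29% of the series-wide regions of 3R, above the 5.20% of 3L. The widest series-wide region of the other arms was 67.2 kb. These broad regions were spread over the arm, with 18 in the proximal part of the arm, 17 in the middle part and 19 in the distal part. The median distance between neighbouring broad regions was 208 kb and the longest was 2205 kb.

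Broad regions also scored higher. The regions of at least 20 kb had a median score of 1.58 and a range of 0.814 to 2.44, against a median of 0.631 for the narrower regions of 3L. The median score was 0.314 for regions under 2 kb, 0.579 at 2 to 5 kb, 1.16 at 5 to 10 kb and 1.37 at 10 to 20 kb. Across all 3L regions the Spearman correlation of score and width was 0.816 in replicate 1 and 0.819 in replicate 2, and the series-wide list gave 0.823. Each was the highest of the 5 large arms in its list, but only narrowly. Arm 3R came next every time, with 0.818 series-wide, 0.811 for replicate 1 and 0.814 for replicate 2. The sources used here do not state how the score was built.

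The highest scores rose with width from near 2 kb upward. Median scores also rose there, in smaller steps. In the series-wide list they were 0.347 at 1 to 1.5 kb, 0.275 at 1.5 to 2 kb, 0.447 at 2 to 2.5 kb and 0.586 at 2.5 to 3 kb. In replicate 1 the medians were 0.443 at 1.5 to 2 kb, 0.657 at 2 to 2.5 kb and 0.904 at 2.5 to 3 kb. In replicate 2 they were 0.430, 0.580 and 0.814 at the same widths. Of the 255 series-wide regions narrower than 2 kb, none scored above 0.523, while regions of 2 to 2.5 kb reached 1.10 and regions of 3 to 3.5 kb reached 2.09. The replicates showed the same rise in the highest score. In replicate 1 the highest score was 0.697 at 1.5 to 2 kb and 1.18 at 2 to 2.5 kb, and in replicate 2 it was 0.581 at 1.5 to 2 kb and 1.02 at 2 to 2.5 kb. The narrowest series-wide region of 3L with a score of at least 1 was 2441 bp wide. Series-wide regions under 2 kb with such a score numbered 0 on 3L, 0 on 2R, 0 on 3R, 2 on 2L and 2 on X. In replicate 1 there were 0 on each of the 5 arms, and in replicate 2 there was 1 on 2L and 0 on each of the others. Their absence from 3L was therefore shared with most arms.

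**Figure D2:**
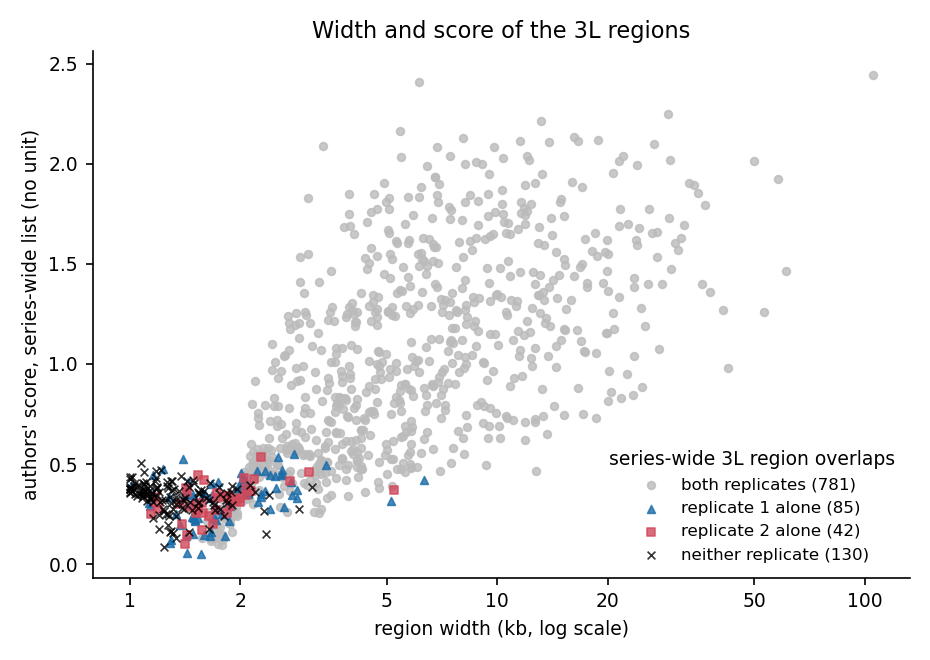
Score as deposited (vertical axis, no unit) against width (kb, log axis) for the 1038 series-wide regions of 3L, marked by whether both replicates, replicate 1 alone, replicate 2 alone or neither has an overlapping region. Scores rise with width, no region under 2 kb scores above 0.523, and the regions met by neither replicate sit at narrow widths and low scores.

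The strongest regions of 3L were not all broad. Region 3L_805, at 3L:17937562-18042520, was both the widest (105 kb) and the highest in score (2.44), with a best score of 2.62 in replicate 1 and 2.36 in replicate 2. In replicate 1 it was listed as pieces of 7273 and 96079 bp, and in replicate 2 as a single region of 103875 bp. Region 3L_784, at 3L:17545508-17551628, came next with a score of 2.41 over only 6121 bp, and ranked 3 in replicate 1 and 2 in replicate 2 among their 3L regions. It lies distal to the widest region, while 3L_806, at 3L:18048964-18057020 (8057 bp, score 2.13), lies just past the proximal edge of the widest region. A gap of 6443 bp separated 3L_806, which ranked 7 in score, from the widest region. Region 3L_784, which ranked 2, lay farther off, with other regions and gaps of up to 71.0 kb in between.

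The other members of the top 10 lay elsewhere along the arm. They were 3L:16132990-16162070 (29081 bp, score 2.25), 3L:307354-320532 (13179 bp, 2.22), 3L:8592384-8597836 (5453 bp, 2.16), 3L:3216782-3232978 (16197 bp, 2.13), 3L:13992548-14011372 (18825 bp, 2.12), 3L:127942-144526 (16585 bp, 2.11) and 3L:6179062-6190576 (11515 bp, 2.11). All 10 met a region in both replicates, and their ranks there went no lower than 19 of the 1003 regions of replicate 1 and 21 of the 910 regions of replicate 2. The eleventh region scored 2.11, so the last places of the top 10 do not stand apart from the regions after them.

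The widest regions kept their cover in both replicates, but most were broken into pieces in at least 1 of them. The 10 widest, from 36.2 to 105 kb, were each covered to at least 94.7% in each replicate and held 7.94% of the covered length of 3L. After 3L_805 they were led by 3L:8819800-8880754 (61.0 kb, score 1.46), 3L:516754-574800 (58.0 kb, 1.92), 3L:22348280-22401510 (53.2 kb, 1.26) and 3L:19875260-19925274 (50.0 kb, 2.01). The 61.0 kb region was listed as 4 pieces in replicate 1 and 3 in replicate 2, and 3L:4692390-4734840 (42.5 kb, 0.982) as 5 pieces in replicate 1 and 2 in replicate 2. Region 3L:19002822-19038980 (36.2 kb, 1.40) was a single region in each. The remaining members of the 10 widest were 3L:13221326-13262364 (41.0 kb, 1.27), 3L:1304848-1342828 (38.0 kb, 1.36) and 3L:3134754-3171400 (36.6 kb, 1.79), each split in at least 1 replicate. Within 3L:19875260-19925274 replicate 1 listed a piece of 4374 bp, 3L:19907296-19911669, with a score of 2.64, the highest on 3L in that list. Replicate 2 had no boundary at the distal side of that piece: its region there ran from 19875282 to 19911871 and scored 2.09.

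Of the 1038 series-wide regions of 3L, 781 overlapped a region of both replicates by at least 1 bp (75.2%, 95% Wilson interval 72.5 to 77.8%), beside 75 percent over the whole series-wide list. Another 85 had a counterpart in replicate 1 alone (8.19%) and 42 in replicate 2 alone (4.05%). The remaining 130 had none (12.5%, Wilson interval 10.6 to 14.7%), beside 12.6 percent of the whole list that met neither. The intervals cover counting error only. The shares on 3L are close to those of the whole list. Regions met by both replicates held 93.6% of the covered length of 3L, and those met by neither held 2.71%.

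The share of regions met by both replicates rose with width and score. The series-wide list was made for the same replicate set, so this describes the calling and is not independent evidence. A wide region also has more bases in which an overlap of 1 bp can fall. With at least 50% of a region covered in each replicate, 73.1% of all 3L regions were met by both. Both replicates met 47 of 255 regions under 2 kb (18.4%), 326 of 372 at 2 to 5 kb (87.6%), 226 of 229 at 5 to 10 kb (98.7%), and all 128 regions at 10 to 20 kb and all 54 of at least 20 kb. With the regions cut into 4 classes by score, low to high, both replicates met 75 of 260, 187 of 259, 259 of 259 and 260 of 260. The highest score of any region not met by both was 0.552. The regions met by neither had a median width of 1272 bp and a highest score of 0.506, at 3L:21492986-21494058 (1073 bp). Next among them were 3L:9732678-9733896 (1219 bp, score 0.469), 3L:2731240-2732418 (1179 bp, 0.466), 3L:19480406-19481498 (1093 bp, 0.461) and 3L:21903534-21904916 (1383 bp, 0.439).

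The lists differ in the narrowest regions they hold. The narrowest 3L region of either replicate was 1304 bp wide, while 87 series-wide regions were narrower than that. Of those 87, 74 met neither replicate, 13 met 1 replicate and 0 met both. The other 56 regions met by neither were at least as wide as the narrowest replicate region.

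**Figure D3:**
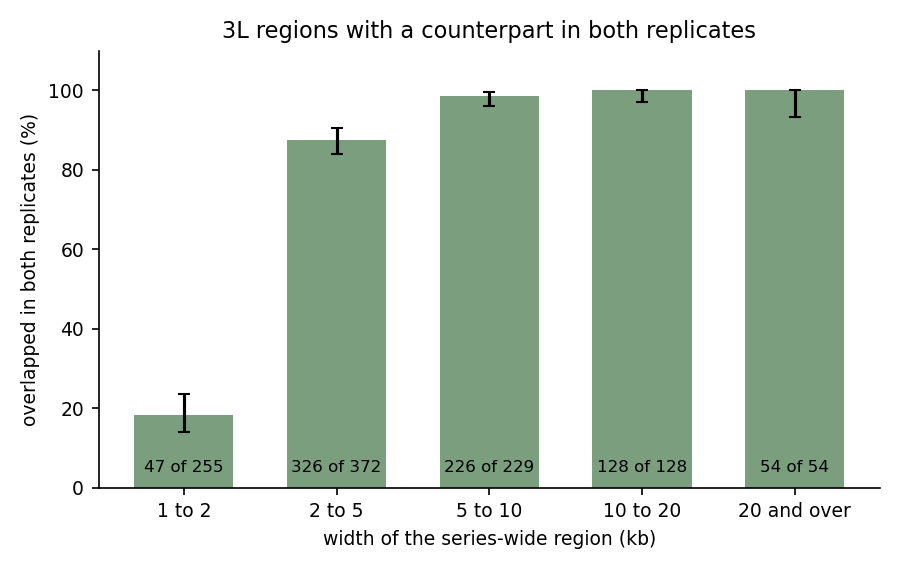
Share of series-wide 3L regions (percent, vertical axis) met by both replicates in 5 classes of width (kb, horizontal axis), with 95% Wilson intervals as error bars and counts inside the bars. The share met by both is 18.4% under 2 kb, 87.6% at 2 to 5 kb and 100% at 10 kb and above.

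Set directly against each other, the replicate lists shared 5.52 Mb on 3L, which is 93.2% of the covered length of replicate 1 and 95.1% of that of replicate 2. The base-pair Jaccard index, shared length over combined length, was 0.889 on 3L, 0.890 on 2L, 0.890 on 2R, 0.892 on 3R and 0.872 on X. On 3L 905 of 1003 regions of replicate 1 met replicate 2 (90.2%), beside 89.5 percent over all its regions, and 861 of 910 regions of replicate 2 met replicate 1 (94.6%), beside 95.3 percent over all its regions. The 98 regions found in replicate 1 alone had a median width of 1538.5 bp and the 49 in replicate 2 alone a median of 1508 bp. All of them scored below their own list's 3L median, with highest scores of 0.835 in replicate 1 and 0.664 in replicate 2.

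The series-wide list left out 3 replicate regions on 3L. They were 3L:683425-684871 (score 0.476) and 3L:21654176-21655657 (0.618) in replicate 1, and 3L:24021528-24022873 (0.372) in replicate 2. None of the 3 met the other replicate.

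Where a region was a single region in all lists, its edges were often close. For 635 regions that matched one to one across the 3 lists, the absolute difference between the replicates had a median of 92 bp at the start and 92 bp at the end, and 336 of them (52.9%) differed by at most 100 bp at the start. The largest differences were 2178 bp at the start and 3748 bp at the end. These regions were picked for matching one to one, so they do not stand for all 3L regions. The mean width in the replicates was smaller than the series-wide width by a median of 197 bp. Scores of these regions ranked alike in the replicates, with a Spearman correlation of 0.968 across regions of the same arm. A further 143 series-wide regions, with a median width of 10183 bp, were listed as several pieces in at least 1 replicate: 111 in replicate 1, 79 in replicate 2 and 47 in both. Of the 54 regions of at least 20 kb, 30 were split in a replicate and 24 were 1 region in each. Broad domains were thus common to the lists in cover, while their number depended on where a list broke them.

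Regions were unevenly spaced, with long empty stretches between some of them. The gap to the next region had a median of 3651 bp and a mean of 17.2 kb in the series-wide list. The median was 3938 bp in replicate 1 and 4896 bp in replicate 2, where the other arms' medians averaged 3504 and 4229 bp. In all 3 lists 3L had the longest median gap of the 5 large arms, but 2L was close. On 2L the median was 3541 bp in the series-wide list, 3845 bp in replicate 1 and 4655.5 bp in replicate 2. The mean gap was longer on 2L than on 3L in each list, at 18.8 against 17.2 kb in the series-wide list. Of the 1037 series-wide gaps, 177 (17.1%) were shorter than 500 bp, and the 33 of at least 100 kb held 36.0% of the summed gap length. Gaps of at least 50 kb numbered 97 in replicate 1, where they took up 41.6% of the arm, and 104 in replicate 2, where they took up 48.3%. The series-wide list had 96 such gaps over 43.9% of the arm.

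Joining neighbours less than 2 kb apart gave 638 groups, of which 398 were single regions and 15 held at least 5 regions, 81 regions in all. The mean group size was 1.63 regions on 3L, the lowest of the 5 large arms in the series-wide list. It was 1.65 on 2L, 1.67 on 3R, 1.74 on 2R and 1.77 on X. The largest groups on 3L had 7 regions each. The first, 3L:11184414-11219132, spanned 34.7 kb, of which 87.6% was covered, but had a median score of only 0.378, and 3 of its regions met neither replicate. The second, 3L:22128578-22171918, spanned 43.3 kb with 5 regions met by both replicates and none met by neither. At the other extreme, 16 regions had gaps of at least 50 kb on both sides. Their median width was 2171 bp and their median score 0.454, and 10 met both replicates and 4 neither. The strongest of them, 3L:4818574-4828010 (9437 bp, score 1.74), scored 1.99 in replicate 1 and 1.57 in replicate 2, and stood 66.9 kb from its distal neighbour and 71.4 kb from its proximal one. Neighbouring regions had little in common in score or width, with Spearman correlations of 0.078 for score and 0.094 for width over 1037 neighbouring pairs.

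**Figure D4:**
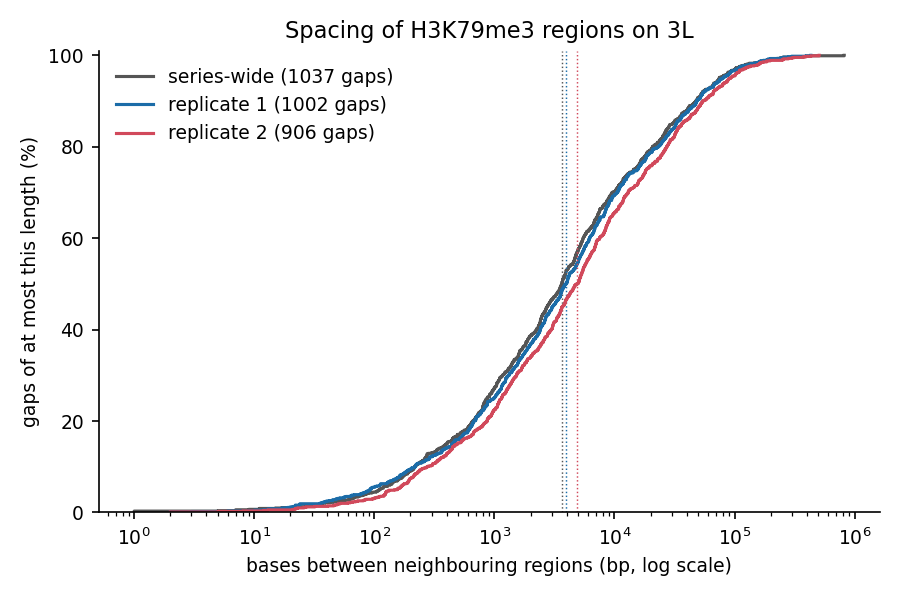
Cumulative share of gaps (percent, vertical axis) no longer than a given length (bp, log axis) between neighbouring 3L regions in replicate 1, replicate 2 and the series-wide list, with dotted lines at the medians. The curve of replicate 2 lies to the right over most lengths, with medians of 4896 bp in replicate 2, 3938 bp in replicate 1 and 3651 bp in the series-wide list.

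The longest gap of the series-wide list, 3L:23710045-24530261 (820 kb), lay at the proximal end, where replicate 1 had 0 regions and replicate 2 had 1. Among the next longest, 3L:18179187-18612089 (433 kb), 3L:13508749-13901617 (393 kb) and 3L:15237781-15491673 (254 kb) lay inside the arm, and 3L:23333961-23708051 (374 kb) was again proximal. Neither replicate had a region within any of these 4. The 433 kb gap began 137 kb and 5 regions after the widest region of the arm ended, so the longest empty stretch of 3L outside the proximal end lay near its broadest enriched domain. At the distal end the first region, 3L:127942-144526, began 128 kb from the tip in all 3 lists and was already among the 10 strongest. It was followed by weak neighbours at 3L:146158-147808 (score 0.157) and 3L:157322-159592 (score 0.349, met by replicate 1 alone).

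The centromere-proximal end held few and weak regions. In the proximal 2 Mb (3L:22543558-24543557) cover was 2.77% in replicate 1 and 3.41% in replicate 2 (3.09 ± 0.459%, SD, n = 2), against 26.0 and 25.4% over the rest of 3L in replicates 1 and 2. The ratio of the proximal end to the rest was 0.106 in replicate 1 and 0.134 in replicate 2 (SD 0.020, n = 2). The 2 Mb at the centromeric end of the assembled sequence was covered more on every other large arm. It was covered to 6.13 and 7.06% on 2R in replicates 1 and 2, 8.02 and 7.64% on X, 9.80 and 10.2% on 2L and 27.2 and 26.7% on 3R. These windows are counted from where each assembled arm ends. How far each arm sequence runs into heterochromatin was not examined, so the windows may not be alike. The proximal end of 3L was the lowest of the 5 in both replicates, also when 1 or 3 Mb was taken.

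The series-wide list had 21 regions in the proximal 2 Mb, with 17 in replicate 1 and 22 in replicate 2. Their median width was 2727 bp, against 3795 bp over the rest of 3L, and their median score 0.368, against 0.707. Of the 21, 17 met both replicates (81.0%, Wilson interval 60.0 to 92.3%), against 764 of 1017 over the rest of 3L (75.1%). The interval covers counting error only and takes neighbouring regions as independent. The difference between these shares was not tested. Replicate 2 alone met 3 of them and replicate 1 alone met 0, against 39 and 85 over the rest of 3L. The remaining region, 3L:22738496-22739596, met neither.

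Most of the cover at the proximal end lay over 1.5 Mb from the end of the arm. The only region there of at least 10 kb was 3L:22856346-22867200 (10855 bp), with a series-wide score of 1.65. Its score was 1.79 in replicate 1 and 1.57 in replicate 2. After a gap of 561 bp came 3L:22867762-22874344 (6583 bp, score 1.29). The other regions above a score of 1 were 3L:22708186-22712058 (3873 bp, 1.23) and 3L:22730252-22737034 (6783 bp, 1.40). All 4 met both replicates.

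Between and around these 4 lay weaker regions. The higher in score were 3L:22813710-22818296 (4587 bp, score 0.767), 3L:22792602-22795604 (3003 bp, 0.635), 3L:22825350-22828566 (3217 bp, 0.622) and 3L:22938238-22940478 (2241 bp, 0.503). The last of these had gaps of 52.6 kb before it and 146 kb after it. The lower were 3L:22819786-22824526 (4741 bp, 0.409), 3L:22766330-22769056 (2727 bp, 0.365), 3L:22882308-22885630 (3323 bp, 0.275), 3L:22719534-22722716 (3183 bp, 0.259) and 3L:22829648-22831218 (1571 bp, 0.131). All 9 met both replicates. The region of 4741 bp was a single piece of 1454 bp in replicate 1, at its proximal edge, while replicate 2 listed pieces of 1599 and 2006 bp over its distal and middle parts.

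In the last 1.5 Mb cover was 0.493% in replicate 1 and 1.08% in replicate 2. That stretch held 7 series-wide regions, each 1845 to 2333 bp wide, with scores of 0.257 to 0.795. The strongest was 3L:23086852-23089184, which scored 0.757 in replicate 1 and 0.867 in replicate 2. The others met by both were 3L:23092514-23094540 (score 0.314), 3L:23141792-23143956 (0.300) and 3L:23331886-23333960 (0.324). Of the 7, 4 met both replicates and 3 met replicate 2 alone: 3L:23329362-23331428 (score 0.346), 3L:23708052-23710044 (0.311) and 3L:24530262-24532106 (0.257). The last region of replicate 1 ended at 23333780, 1210 kb from the end of the arm, while replicate 2 had 3 regions beyond it, the last of them 11.5 kb from the end. The region in the middle of those 3, 3L:24021528-24022873, was not in the series-wide list.

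In steps of 250 kb counted back from the end of the arm, cover was 0, 0, 0 and 0% in replicate 1 and 0.730, 0, 0.538 and 0.808% in replicate 2 over the last 1 Mb. It was 0.621, 2.34, 13.1 and 6.11% in replicate 1 and 1.76, 2.64, 14.6 and 6.25% in replicate 2 over the next 1 Mb, and reached 26.6% in replicate 1 and 24.1% in replicate 2 in the step after that. Replicate 2 was the higher in every step of the proximal 2 Mb except the one where both were at 0, whereas it was the lower in 20 of 24 blocks along the whole arm. No test of this difference was possible with 1 list for each replicate.

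**Figure D5:**
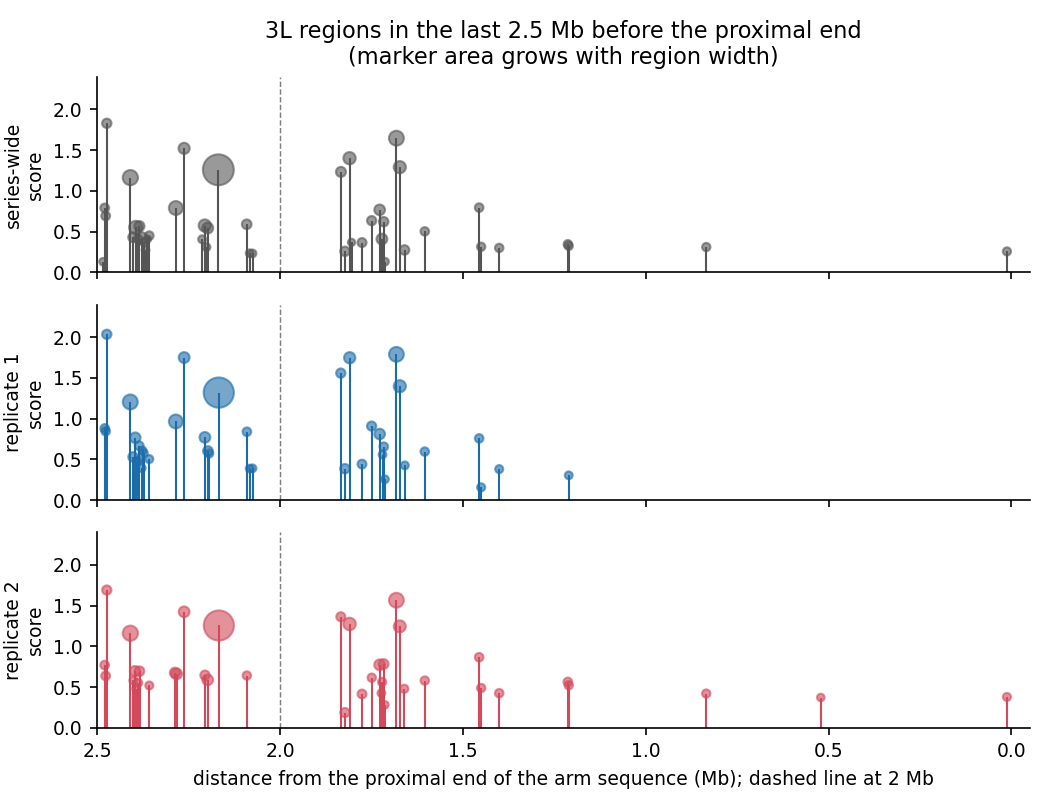
Score of each 3L region (vertical axis, no unit) in the last 2.5 Mb of the arm against distance from the proximal end (Mb), with a panel for each of the 3 lists; marker area grows with width and the dashed line marks 2 Mb. The last region of replicate 1 lies 1210 kb from the end, replicate 2 has 3 regions beyond it, and none of the 7 series-wide regions in the last 1.5 Mb scores above 0.795.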

How the data were processed

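Regions were compared by position on FlyBase release 5, per the file headers. The authors deposited lists of enriched regions, each with a first and last base and a score without a stated unit. There is 1 list for each of 2 ChIP replicates and 1 series-wide list, whose name marks the replicate set. The submitters' processing notes name Bowtie 0.12.7. Not given in the sources used here are the caller and threshold behind the regions, the use of the input and the way the replicates were combined.

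Computed here were widths, gaps, cover by merged length, overlaps of at least 1 bp and ranks within a list, with Python 3.11.15, numpy 2.4.6, pandas 2.3.3 and scipy 1.17.1. Figures were drawn with matplotlib 3.10.9. The interval steps were tested on simulated data. Values in the replicates are given as mean ± SD. No test was run, since the lists hold no counts and the comparison has 2 ChIP libraries of 1 group. Correlations are descriptions. Named regions were the 10 highest in score, the 10 widest, the 3 nearest the distal end, those of the proximal 2 Mb and the 5 highest in score met by neither replicate. Isolated or grouped regions and regions missing from a list were named after their values were seen. The members and lists were chosen with earlier results of these data known. The alternatives were a filter on score or width, joined regions, stricter overlap, other sizes of the proximal end, the series-wide in place of the replicate lists and leaving out a replicate. The 2 input libraries were not analysed here.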

Additional observations from a re-analysis of the deposited data

Results flagged for a closer look

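The scaffold 3LHet, which holds heterochromatic sequence of 3L kept apart from the arm, had 8 enriched regions in the series-wide list, 6 in replicate 1 and 8 in replicate 2. They drew attention because the comparisons above do not use this scaffold. They covered 0.657% of its 2.56 Mb in the series-wide list, 0.501% in replicate 1 and 0.652% in replicate 2. The highest score was 1.12 in the series-wide list, 1.09 in replicate 1 and 1.19 in replicate 2, at 3LHet:2397230-2399848. Of the 8 series-wide regions, 6 met both replicates and 2 met replicate 2 alone. No input values stand beside these.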

How the results depend on the processing

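Keeping the top 50% by score gave 506 series-wide regions, with median width 7276 bp, median score 1.26 and median gap 11789 bp. With the replicate lists also cut by score, cover was 18.1%, proximal cover 1.32%, proximal ratio 0.067 and Jaccard index 0.878. Of the 506 regions, 81.8% met both of these cut replicate lists. Against the full replicate lists every series-wide region scoring above 0.552 met both, so the 81.8% does not mean that strong regions lacked a counterpart. Keeping regions at least as wide as the narrowest replicate region gave median width 4151 bp, median score 0.779 and 82.1% met by both. Joining regions under 500 bp apart gave median width 4599 bp, median gap 5245 bp and 27.8% of length in broad regions. The list of replicate 2 gave a median width of 3962.5 bp and a median gap of 4895.5 bp. The median score was 0.906 in the list of replicate 1 and 0.857 in that of replicate 2, which cannot be read as a shift from the series-wide median because the lists share no stated scale. The series-wide list gave cover of 26.8%, proximal cover of 3.61% and 25.0% in broad regions. Proximal cover was 0.260% at 1 Mb (ratio 0.011) and 8.27% at 3 Mb (ratio 0.318). Without the proximal 2 Mb of each arm 3L minus the other arms was 0.246 points, a turn in sign of a difference that had no test. Reciprocal overlap of 50% gave 69.6% met by both. The cause of these shifts was not tested beyond the change in regions or lengths that each alternative makes. With 1 replicate left out, cover of 3L ran between 23.6 and 24.1%, proximal cover between 2.77 and 3.41%, the ratio between 0.106 and 0.134, the difference from the other arms between -0.660 and -0.219 points and the broad share between 19.5 and 21.3%. No paired analysis was possible because the results come from no test and the input libraries were not analysed here.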

Other observations

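The lists also hold depletion entries. On 3L there was 1 in replicate 1, at 3L:19971785-19973311 (1527 bp, score -0.0212), and 1 in the series-wide list, at 3L:19971766-19973350 (1585 bp, score -0.110), with none in replicate 2.

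Every start and every end of the 1038 series-wide regions of 3L was an even number. In replicate 1, 512 starts and 477 ends of 1003 were even, and in replicate 2, 440 starts and 453 ends of 910. Replicate 2 had 3 pairs of neighbouring 3L regions that overlapped or touched, against 0 in both other lists.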
